A study of Homo sapiens with 12 samples.

Results

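The genes described here are 47 members of the early secretory pathway: the sensors of endoplasmic reticulum (ER) stress, the machinery that brings proteins into the ER, N-glycosylation, ER-associated degradation (ERAD) and a small group for UFMylation, ER export and the secreted protein CRELD2. They were taken by gene symbol from the 63187 genes of the deposited table. Genes were tested where 3 or more libraries reached a normalized count of 10; 46 of the 47 did, among 9270 in all. RPN2, a subunit of the oligosaccharyltransferase, did not: it had 65 reads in all and stood between 0 and 11.6 in the 12 libraries. Other subunits of that complex had more reads, STT3A 3248 and RPN1 1168. The annotation and strand setting of the counting are not given in the sources used here, so the value of RPN2 is not read as its level in the cells.

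Proteins bound for the cell surface or for secretion are threaded into the ER through the SEC61 channel, after the signal recognition particle has brought the ribosome to the membrane. Signal peptidase removes the leader, the oligosaccharyltransferase attaches a preformed sugar tree, and proteins that fail to fold are pulled back out, marked with ubiquitin and degraded. When unfolded proteins gather, IRE1 (encoded by ERN1), PERK (EIF2AK3) and ATF6 start the unfolded protein response. IRE1 splices the mRNA of the transcription factor XBP1, which, with cleaved ATF6, switches on many genes of the same machinery. The sugar donors for N-glycosylation are made from glucose, and the nitrogen of their amino sugars comes from glutamine.

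The cells were of the MDA-MB-231 line, established from a human breast adenocarcinoma and kept for 36 h in 1 of 4 media with 3% fetal bovine serum. Glucose (25 mM) and glutamine (4 mM) were both present in full medium, either was present by itself in glucose-only and glutamine-only medium, and deficient medium had neither. For the growth before this step the labels name a balanced salt solution high in glucose, and they introduce all 4 media as deficient in glucose although 2 of them contain it. Total RNA depleted of ribosomal RNA was sequenced from 3 libraries per medium, lettered A, B and C, and all 12 carry the same batch label. The labels do not say whether the 3 libraries of a medium were separate cultures, so p-values measure the spread between libraries only. All comparisons rest on 1 line and 1 time.

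Libraries held 875033 to 1473587 reads assigned to genes (median 1036890), and 1 read was worth a normalized count of 0.661 to 1.30. Protein-coding genes accounted for 44.4 ± 2.51% of glucose-only reads, 47.3 ± 4.34% of deficient, 51.1 ± 3.34% of glutamine-only and 55.4 ± 3.94% of full-medium reads (SD, n = 3). Of the line's 5 own markers, KRT8, KRT18, VIM and CD44 were above 10 in every library, VIM between 641 and 1047 and CD44 between 377 and 786. EPCAM was low, falling to 0.963, though it was not under 10 in every library. Of other cell types, all 3 adipocyte, 5 fibroblast and 5 blood markers and 2 of 3 endothelial markers were below 10 in each library, the highest endothelial value being 19.7. Of 4 luminal epithelial markers 3 stayed under 10, among them ESR1 and CDH1, while KRT19 stood between 63.9 and 164.

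The summed level of the members was highest in glutamine-only medium. Their summed normalized count was 3496 ± 33.3 in full and 3424 ± 95.05 in glucose-only medium, against 5399 ± 122 in glutamine-only and 4881 ± 205 in deficient medium (SD, n = 3). As a share of protein-coding reads they took 0.678 ± 0.00179% in full, 0.710 ± 0.0172% in glucose-only, 1.04 ± 0.0162% in glutamine-only and 0.840 ± 0.0317% in deficient medium. As a share of all reads assigned to genes they took 0.375 ± 0.0260% in full, 0.315 ± 0.0113% in glucose-only, 0.534 ± 0.0423% in glutamine-only and 0.398 ± 0.0493% in deficient medium. On this last scale the deficient libraries (0.345 to 0.443%) overlapped the full ones (0.356 to 0.405%). The highest mean lay in glutamine-only medium for 27 of the 46 tested members, in deficient medium for 14, in full for 3 and in glucose-only for 2. In RNA from a whole culture, fewer cells that express a gene and less RNA of it per cell cannot be told apart.

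Each member was tested with limma on log2(normalized count + 1), with Benjamini-Hochberg adjusted p under 0.05 as the threshold; "rose" and "fell" below refer to that threshold. Changes are log2 differences of means ± SE, on the scale of log2(normalized count + 1), which understates the change of low genes. In glutamine-only against full medium 30 of 46 members rose, none fell and 16 did not pass, where 10.8% of all tested genes rose and 11.6% fell. The median change of the members was 0.63, against -0.01 for all genes. In deficient against full medium 27 rose, 2 fell and 17 did not pass (all genes: 26.3% higher, 25.5% lower), with a median of 0.45 against 0.01. In glucose-only against full medium 6 rose, 5 fell and 35 did not pass, close to the background of 9.44% higher and 13.5% lower, and the median was -0.02. These 3 comparisons share the full-medium libraries. CRELD2 passed the filter only through glutamine-only and deficient medium, where it is high, so its place among the rises in those media is no support for them.

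Scaling bore on the counts. When every library was scaled to the same total, 23 members rose and 1 fell in glutamine-only medium. By that scaling 12 rose and 10 fell in deficient medium, and 3 rose and 14 fell in glucose-only medium. It moved the median of all genes to -0.12, -0.37 and -0.24 in these 3 comparisons, where the medians of the members were 0.51, 0.05 and -0.24. Of all tested genes 21.5%, 53.3% and 27.5% were then called, higher and lower together. The falls in glucose-only medium thus came with a members' median equal to that of all genes. The share of protein-coding reads given above was lowest in glucose-only medium, and the part of that share in the result was not tested. The rises in glutamine-only medium that equal totals did not keep were those of SEC61B, SEC63, SPCS2, SRPRA, SRPRB, DDOST and UFM1. Quantile normalization did not keep the calls of SRP54, SRP72, STT3A and DAD1 in deficient medium or of RPN1 and VCP in glucose-only medium. DESeq2 on recovered reads did not keep SEC61B, SEC63, SRPRB, DDOST and UFM1 in glutamine-only medium, SEC61B, SRP54, DAD1 and VCP in deficient medium, or SSR3, RPN1, OST4, UFM1 and SEC24D in glucose-only medium.

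**Figure D1:**
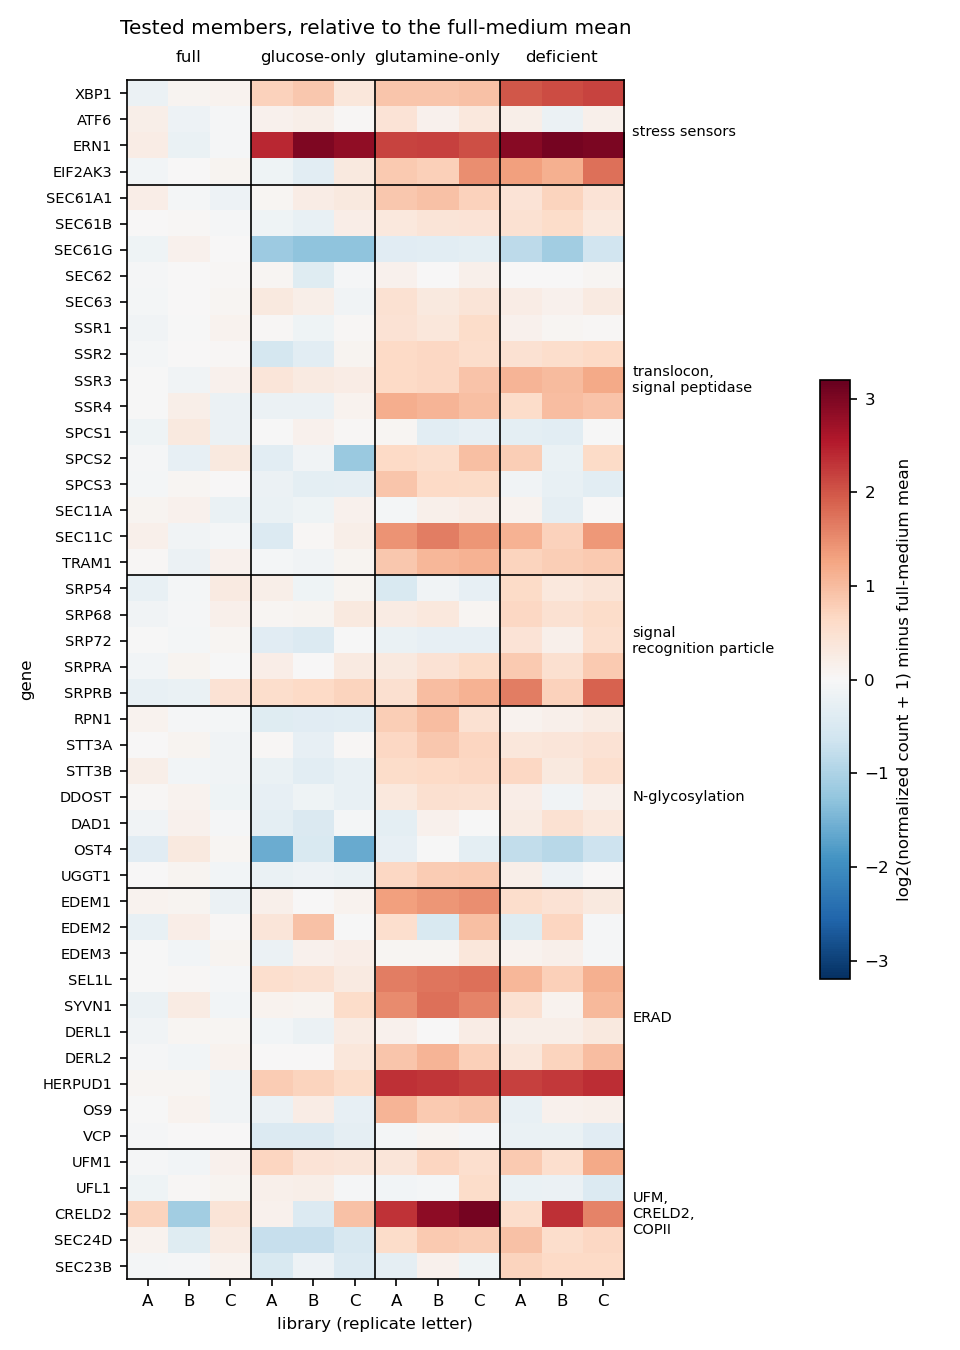
Each row is 1 of the 46 tested members and each column 1 of the 12 libraries; colour gives log2(normalized count + 1) minus the full-medium mean of that gene, red above and blue below. The glutamine-only and deficient columns are mostly red, with a summed normalized count of 5399 and 4881 against 3496 in full, and the darkest rows are ERN1, XBP1, HERPUD1 and CRELD2.

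Promoter sequence was read for the members to show which of them carry the motifs of this stress response next to their start sites. RefSeq windows on GRCh38.p14 matched 40 of the 47 members, and the 250 bases before each start were searched on both strands. The ER stress response element, ERSE, written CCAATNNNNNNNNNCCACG, was found in 2 of 40 members (5%), XBP1 and CRELD2, and in 25 of 27305 genes with a window (0.0916%). ERSE-II, written ATTGGNCCACG, was found in 1 member (2.5%), HERPUD1, against 0.0659% of all genes. The 2 elements share the letters CCACG, and no member held both. The 3 promoters are shown since these genes are among the highest changes below; capitals mark the motifs, and the strand is that of the gene.

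XBP1, chr22:28800570-28800819, minus strand, with ERSE 52 to 34 bases before the start:
XBP1: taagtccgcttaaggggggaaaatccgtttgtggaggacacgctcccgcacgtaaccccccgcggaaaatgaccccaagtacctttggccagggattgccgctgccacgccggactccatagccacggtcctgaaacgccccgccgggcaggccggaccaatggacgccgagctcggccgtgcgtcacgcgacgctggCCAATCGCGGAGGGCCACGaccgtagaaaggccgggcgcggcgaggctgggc
CRELD2, chr22:49918384-49918633, plus strand, with ERSE on the opposite strand 80 to 62 bases before the start:
CRELD2: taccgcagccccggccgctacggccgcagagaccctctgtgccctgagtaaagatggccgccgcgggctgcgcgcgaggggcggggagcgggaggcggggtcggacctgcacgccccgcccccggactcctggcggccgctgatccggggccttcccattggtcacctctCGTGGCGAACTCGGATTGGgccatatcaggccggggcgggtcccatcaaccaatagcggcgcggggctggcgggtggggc
HERPUD1, chr16:56931892-56932141, plus strand, with ERSE-II 117 to 107 and, on the opposite strand, TGATGNAA 176 to 169 bases before the start:
HERPUD1: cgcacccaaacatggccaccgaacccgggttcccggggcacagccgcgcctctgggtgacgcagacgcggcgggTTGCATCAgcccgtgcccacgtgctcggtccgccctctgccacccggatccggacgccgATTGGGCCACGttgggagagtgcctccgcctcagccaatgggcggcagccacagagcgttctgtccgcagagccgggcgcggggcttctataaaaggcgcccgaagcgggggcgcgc

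A further pair of motifs was searched. TGACGTGG, the core letters bound by XBP1 and ATF6, stood in 4 members (10%), SEC62, SSR3, SSR4 and VCP, against 0.78% of genes. A gene was counted if any of its windows held the letters. SSR3 has 3 windows and held them only at chr3:156554126-156554375, inside the gene (156539553 to 156555117). SSR4 has 2 windows and held them only at chrX:153794418-153794667, also inside the gene (153794159 to 153798499). TGATGNAA, the core of the ATF4 element, stood in SRPRB and HERPUD1, 2 of 40 members (5%), against 3.89% of genes. The window of SRPRB, chr3:133805565-133805814, lies inside the gene (133784023 to 133828574). The letters in a window are a description only. Among the 4 genes with TGACGTGG, SSR3 and SSR4 rose in glutamine-only medium by 0.74 ± 0.11 and 1.07 ± 0.13, while SEC62 stood at 0.10 ± 0.12 and VCP at -0.02 ± 0.10 without passing.

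Of the sensors, the genes for IRE1, PERK and XBP1 rose in deficient and in glutamine-only medium, and ATF6 passed in no comparison. ERN1 (ENSG00000178607, chromosome 17, 64039142 to 64130144), which encodes the kinase and nuclease IRE1, stood at 15.9, 11.3 and 12.8 in full medium and at 74.7, 111.1 and 99.9 in glucose-only medium. It stood at 62.2, 63.6 and 58.7 in glutamine-only and at 106.7, 118.3 and 113.4 in deficient medium. Every starved library lay above every full library, and the glutamine-only libraries lay below those of the other 2 starved media. ERN1 rose by 2.74 ± 0.16 in glucose-only (adjusted p = 1.09e-13), 2.14 ± 0.16 in glutamine-only (1.89e-11) and 3.00 ± 0.16 in deficient medium (2.1e-15). It is the only member that rose more than 2-fold in glucose-only medium.

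XBP1 (ENSG00000100219, chromosome 22, 28794560 to 28800569) stood at 60.8, 74.3 and 75.2 in full, 116.8, 127.8 and 89.4 in glucose-only and 129.0, 130.0 and 134.2 in glutamine-only medium. In deficient medium it stood at 281.2, 301.9 and 316.0, above all other libraries. The changes against full were 0.65 ± 0.12 (adjusted p = 0.000252), 0.90 ± 0.12 (2.48e-06) and 2.09 ± 0.12 (2.58e-14). Deficient also exceeded glutamine-only medium, by 1.19 ± 0.12. These are levels of the whole gene, and splicing of its mRNA cannot be read from them.

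EIF2AK3, which encodes PERK, the kinase that slows translation, stood at 11.2, 12.2 and 12.8 in full and at 10.8, 9.4 and 15.3 in glucose-only medium. It stood at 22.6, 21.2 and 35.4 in glutamine-only and at 31.2, 27.8 and 43.5 in deficient medium. The full and glucose-only libraries overlapped, and all libraries without glucose lay above all libraries with it. It rose by 1.03 ± 0.27 in glutamine-only (adjusted p = 0.0055) and 1.40 ± 0.27 in deficient medium (7.67e-05), and was at -0.05 ± 0.27 in glucose-only medium. Without glutamine-only replicate C the first of these was 0.80, with adjusted p = 0.061. Of its exonic bases 15.1% lie opposite genes on the other strand, and the strand setting of the counting is not given in the sources used here.

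ATF6, the membrane-bound transcription factor cut free in the Golgi, stood at 84.6, 65.8 and 72.5 in full, 81.9, 83.8 and 76.4 in glucose-only, 101.0, 80.9 and 94.1 in glutamine-only and 84.6, 65.2 and 82.3 in deficient medium. All 4 media overlapped. Its change was 0.31 in glutamine-only medium (95% interval 0.03 to 0.59, adjusted p = 0.109), and in deficient medium it was 0.06 (-0.22 to 0.33). Quantile normalization alone placed ATF6 past the threshold in glutamine-only medium.

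**Figure D2:**
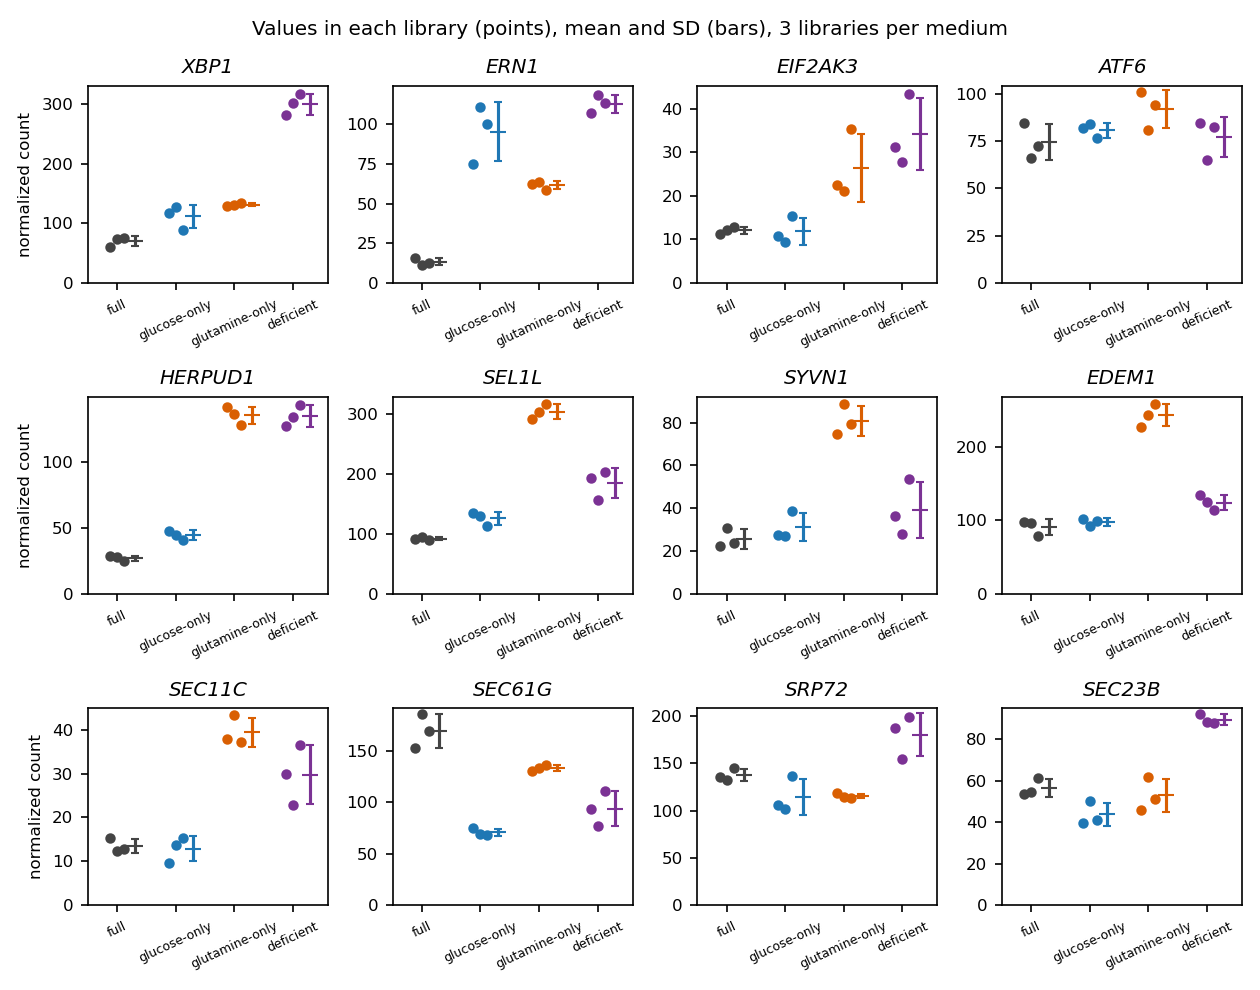
Normalized counts of 12 members in each library by medium, with the mean and SD beside the 3 points; each panel has its own linear axis from 0. XBP1 is highest in deficient medium (281 to 316), ERN1 is low only in full medium (11.3 to 15.9), and SEL1L, SYVN1 and EDEM1 are highest in glutamine-only medium.

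In the translocon and signal peptidase group, 11 of 15 members rose in glutamine-only medium and none fell. In deficient medium 7 rose and 1 fell, and in glucose-only medium 1 rose and 1 fell. The rises in glutamine-only medium were led by SEC11C (1.49), SSR4 (1.07), TRAM1 (1.01) and SEC61A1 (0.85). TRAM1 helps nascent chains enter the channel, and SSR1 to SSR4 are the TRAP complex beside it. With equal totals the group gave 8 higher and 1 lower in glutamine-only, 4 higher and 6 lower in deficient, and 0 higher and 4 lower in glucose-only medium.

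The channel has 3 subunits. SEC61A1, the pore itself, rose by 0.85 ± 0.12 in glutamine-only (adjusted p = 3e-06) and 0.53 ± 0.12 in deficient medium (0.000444). SEC61B rose by 0.40 ± 0.15 and 0.47 ± 0.15. The first of these did not pass once any of the 3 glutamine-only or 3 full libraries was left out (0.38 to 0.43, adjusted p 0.0779 to 0.119). The change of SEC61B in deficient medium did not pass with equal totals, nor did that of SEC61A1. SEC61G, the small subunit (ENSG00000132432, chromosome 7, 54752253 to 54759211), stood at 152.7, 186.1 and 169.7 in full and at 74.7, 69.2 and 68.2 in glucose-only medium. It stood at 130.8, 133.9 and 136.1 in glutamine-only and at 93.7, 77.3 and 111.0 in deficient medium. All starved libraries lay below all full ones, and the glucose-only libraries were the lowest. It fell by 1.25 in glucose-only (adjusted p = 1.01e-08) and by 0.85 in deficient medium (1.54e-06). In glutamine-only medium it was at -0.34 ± 0.12, just short of the threshold (adjusted p = 0.0509).

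All 4 TRAP genes rose in glutamine-only medium, from 0.47 ± 0.10 for SSR1 to 1.07 ± 0.13 for SSR4. SSR3 stood at 107.8, 100.6 and 120.2 in full, 143.3, 133.1 and 128.2 in glucose-only, 170.5, 174.3 and 205.1 in glutamine-only and 233.0, 221.0 and 252.4 in deficient medium. Every starved library was above the full ones and the deficient libraries were the highest of all. SSR3 rose by 1.10 ± 0.11 in deficient (adjusted p = 1.64e-09), 0.74 ± 0.11 in glutamine-only (7.96e-06) and 0.30 ± 0.11 in glucose-only medium (0.046). The last did not pass without full replicate A or B, any 1 glucose-only library or glutamine-only replicate B (0.24 to 0.34, adjusted p 0.0533 to 0.177), nor with equal totals or DESeq2. SSR2 and SSR4 also rose in deficient medium, by 0.56 ± 0.14 and 0.83 ± 0.13, while SSR1 was at 0.08 ± 0.10 there. With equal totals SSR2 no longer passed in deficient medium.

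Signal peptidase has 2 alternative catalytic subunits, SEC11A and SEC11C. SEC11C stood at 15.2, 12.2 and 12.8 in full, 9.6, 13.6 and 15.3 in glucose-only, 37.9, 43.3 and 37.3 in glutamine-only and 29.9, 22.9 and 36.5 in deficient medium. Libraries without glucose lay above all libraries with it. SEC11C rose by 1.49 ± 0.24 in glutamine-only (adjusted p = 3.33e-05) and 1.08 ± 0.24 in deficient medium (0.000542). SEC11A was at 0.11 in glutamine-only medium (95% interval -0.22 to 0.45) and at -0.05 in deficient medium (-0.38 to 0.29). The difference between the 2 genes was not tested.

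Among the other subunits of the peptidase, SPCS3 rose in glutamine-only medium, from 146 ± 6.402 to 241 ± 25.6 (0.71 ± 0.11), and was at -0.23 ± 0.11 in deficient medium. SPCS2 rose by 0.72 ± 0.25 in glutamine-only medium. This did not pass when any 1 glutamine-only library, full replicate A or full replicate B was left out (0.59 to 0.80, adjusted p 0.0569 to 0.155), nor with equal totals. SPCS1, of whose exonic bases 58.1% lie opposite another gene, was at -0.18 ± 0.18 and -0.22 ± 0.18 in glutamine-only and deficient medium. SEC63, which with SEC62 serves post-translational entry, rose by 0.41 ± 0.13 in glutamine-only medium. It did not pass without glutamine-only or full replicate A (0.37 and 0.38, adjusted p = 0.0764 and 0.0695), and SEC62 was at 0.10 ± 0.12. TRAM1 went from 122 ± 13.98 in full to 246 ± 22.8 in glutamine-only and 209 ± 8.09 in deficient medium, rises of 1.01 ± 0.11 and 0.77 ± 0.11.

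In the signal recognition particle and its receptor all 5 members rose in deficient medium, 2 rose in glutamine-only and none passed in glucose-only medium. With equal totals 1 of the 5 rose in deficient medium and none in glutamine-only medium; with quantile normalization 3 and 2 did. SRPRB, the membrane anchor of the receptor, stood at 9.3, 9.4 and 15.6 in full, 16.9, 17.8 and 18.8 in glucose-only, 16.2, 23.1 and 25.2 in glutamine-only and 36.4, 19.3 and 43.5 in deficient medium. All starved libraries lay above the full ones, with a wide spread in deficient medium. It rose by 1.42 ± 0.29 in deficient (adjusted p = 0.000149) and 0.87 ± 0.29 in glutamine-only medium (0.0269). The latter did not pass without glutamine-only replicate B or C or full replicate A or B (0.75 to 0.81, adjusted p 0.0924 to 0.113), and of the exonic bases of SRPRB 18.4% lie opposite another gene.

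SRPRA, the other receptor subunit, rose by 0.73 ± 0.12 in deficient and 0.47 ± 0.12 in glutamine-only medium, and passed in neither with equal totals. SRP72, a protein of the particle, stood at 135.5, 132.5 and 144.9 in full and at 106.0, 101.6 and 136.4 in glucose-only medium. It stood at 118.2, 114.6 and 113.7 in glutamine-only and at 187.4, 154.6 and 198.8 in deficient medium. The deficient libraries were above all others. SRP72 rose by 0.38 ± 0.12 in deficient medium (adjusted p = 0.00971), while without deficient replicate C the change was 0.31 (0.0599) and with equal totals -0.02. SRP68 and SRP54, which binds the signal sequence, rose by 0.58 ± 0.14 and 0.45 ± 0.17 in deficient medium. SRP54 did not pass without deficient replicate A or full replicate A or B (0.34 to 0.42, adjusted p 0.0734 to 0.142), and neither passed with equal totals.

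In N-glycosylation, 5 of 7 tested members rose in glutamine-only medium and none fell. In deficient medium 3 rose, and in glucose-only medium none rose and 2 fell. STT3A and STT3B, the 2 catalytic subunits of the oligosaccharyltransferase, rose by 0.73 ± 0.10 and 0.63 ± 0.11 in glutamine-only medium and by 0.40 ± 0.10 and 0.51 ± 0.11 in deficient medium. RPN1 rose by 0.76 ± 0.13 in glutamine-only medium and was at 0.18 ± 0.13 in deficient medium. With equal totals 4 rose in glutamine-only medium, 0 rose and 2 fell in deficient medium, and 0 rose and 6 fell in glucose-only medium, so that the direction of the group in deficient medium depended on the scaling.

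UGGT1, which tests glycoproteins for folding and re-glucosylates those that are not folded, went from 104 ± 5.94 in full to 179 ± 10.8 in glutamine-only medium and was 105 ± 12.7 in deficient medium. Its changes were 0.77 ± 0.11 (adjusted p = 7.74e-06) and 0.01 ± 0.11. DDOST, a subunit of the transferase, rose by 0.45 ± 0.13 in glutamine-only medium. It did not pass without full replicate C (0.38, adjusted p = 0.06) or with equal totals, and it shares 15.7% of its exonic bases with a gene on the same strand. DAD1, another subunit, rose by 0.36 ± 0.14 in deficient medium. It did not pass without deficient replicate B or C or full replicate A or C (0.30 to 0.37, adjusted p 0.0625 to 0.127), and with equal totals its change was -0.04.

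OST4, the smallest subunit, stood at 12.6, 20.7 and 17.4 in full, 4.8, 11.5 and 4.7 in glucose-only, 13.5, 16.4 and 13.05 in glutamine-only and 9.1, 8.5 and 10.1 in deficient medium. The glucose-only and deficient libraries lay below all full libraries, on few reads. It fell by 1.23 in glucose-only medium (adjusted p = 0.00869) and was at -0.78 ± 0.34 in deficient medium (0.0548). Without full replicate B the fall in glucose-only medium did not pass (-1.08, 0.0549), and 21% of its exonic bases lie opposite another gene. RPN1 fell by 0.36 in glucose-only medium, which did not pass when any 1 full or glucose-only library was left out (-0.40 to -0.30, adjusted p 0.055 to 0.15).

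In ERAD 6 of 10 members rose in glutamine-only medium and none fell. In deficient medium 5 rose and 1 fell, and in glucose-only medium 2 rose and 1 fell. The 6 were HERPUD1, SEL1L, SYVN1, EDEM1, OS9 and DERL2, which together recognise misfolded glycoproteins and carry them through the membrane. With equal totals 6 rose in glutamine-only medium too, and 2 rose and 1 fell in deficient medium.

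HERPUD1 (ENSG00000051108, chromosome 16, 56932142 to 56944864), an organiser of the ERAD complex, stood at 28.4, 28.2 and 24.8 in full and at 48.2, 45.1 and 41.2 in glucose-only medium. It stood at 141.6, 136.8 and 128.6 in glutamine-only and at 127.6, 134.0 and 143.6 in deficient medium. The media without glucose overlapped each other and lay above both media with glucose. HERPUD1 rose by 0.70 ± 0.13 in glucose-only (adjusted p = 0.000185), 2.28 ± 0.13 in glutamine-only (7.98e-14) and 2.28 ± 0.13 in deficient medium (1.25e-14). The change from glutamine-only to deficient medium was -0.01, with a 95% interval of -0.27 to 0.26.

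SEL1L (ENSG00000071537, chromosome 14, 81471547 to 81533853) and SYVN1 encode the adaptor and the ubiquitin ligase HRD1 of the main ERAD complex. SEL1L stood at 91.2, 95.9 and 90.8 in full, 134.9, 131.0 and 114.1 in glucose-only, 292.3, 303.4 and 317.8 in glutamine-only and 193.9, 157.0 and 204.2 in deficient medium. The 4 media did not overlap, and glutamine-only was the highest. SEL1L rose by 0.44 ± 0.11 in glucose-only (adjusted p = 0.00403), 1.71 ± 0.11 in glutamine-only (1.07e-12) and 0.98 ± 0.11 in deficient medium (1.85e-08), though with equal totals it did not pass in glucose-only medium.

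SYVN1 stood at 22.5, 31.0 and 23.9 in full, 27.7, 27.2 and 38.8 in glucose-only, 74.9, 88.6 and 79.2 in glutamine-only and 36.4, 27.8 and 53.6 in deficient medium. The glutamine-only libraries stood above all others, which overlapped. It rose by 1.62 ± 0.21 in glutamine-only (adjusted p = 6.21e-07) and 0.55 ± 0.21 in deficient medium (0.0257). The latter did not pass with equal totals, nor without deficient replicate C, full replicate A or full replicate C (0.31 to 0.50, adjusted p 0.0704 to 0.238). Of its exonic bases 8.39% are shared with other genes on the same strand.

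EDEM1, a lectin that trims mannose on misfolded glycoproteins, went from 91.2 ± 10.7 in full to 243 ± 15.4 in glutamine-only medium (1.41 ± 0.11, adjusted p = 1.17e-10). In deficient medium it was 124 ± 10.4 (0.44 ± 0.11, 0.00197), a rise that did not pass with equal totals. Its paralogs EDEM2 and EDEM3 were at 0.33 ± 0.40 and 0.17 ± 0.14 in glutamine-only medium without passing, EDEM2 with under 10 in every full library. OS9, another lectin, rose in glutamine-only medium, from 37.1 ± 3.24 to 71.9 ± 7.37 (0.93 ± 0.17), and was at 0.03 ± 0.17 in deficient medium; 13.5% of its exonic bases lie opposite another gene.

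Of the 2 derlins, channel-like proteins of the exit route, DERL2 rose by 0.91 ± 0.17 in glutamine-only and 0.69 ± 0.17 in deficient medium. DERL1 was at 0.13 (95% interval -0.19 to 0.44) and 0.24 (-0.08 to 0.55), and the difference between the paralogs was not tested. With equal totals DERL2 did not pass in deficient medium. VCP, the ATPase that pulls substrates out, stood at 210.3, 218.1 and 217.4 in full, 159.0, 158.2 and 176.4 in glucose-only, 205.7, 223.4 and 208.8 in glutamine-only and 186.1, 185.9 and 168.5 in deficient medium. The glucose-only and deficient libraries lay below the full ones, and those in glutamine-only medium overlapped them. VCP fell by 0.39 in glucose-only (adjusted p = 0.00458) and by 0.26 in deficient medium (0.0301). The latter did not pass without deficient replicate C or full replicate B or C (-0.25 to -0.21, adjusted p 0.0701 to 0.116), and the former did not with quantile normalization.

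**Figure D3:**
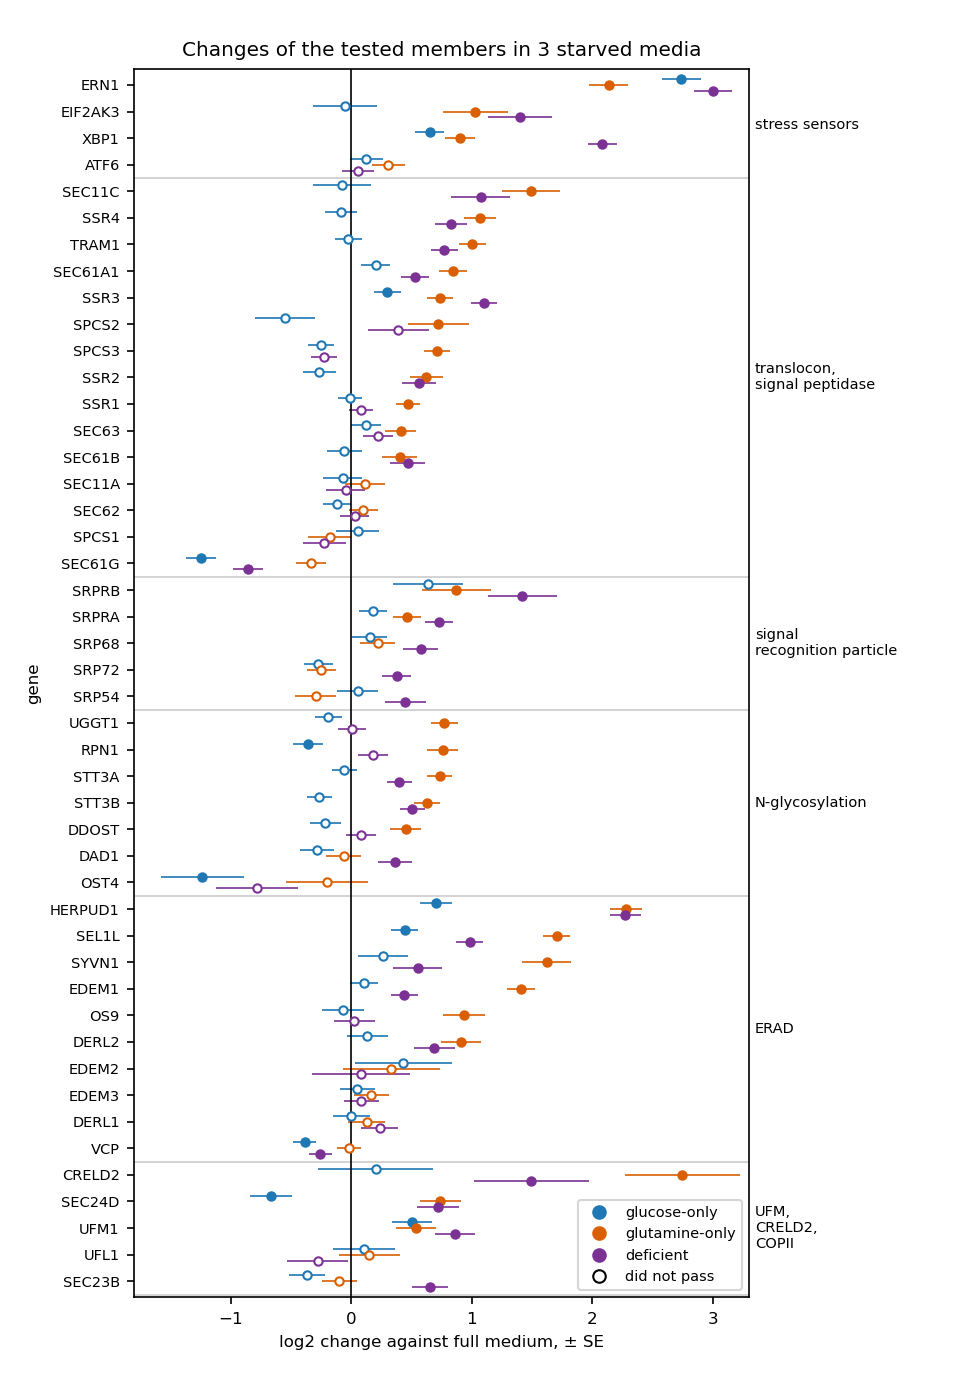
Log2 change (± SE) of each tested member against full medium, by role, in glucose-only (blue), glutamine-only (orange) and deficient (purple) medium; filled points passed the threshold. The 30 filled orange points all lie above 0, and the 11 filled blue points lie on both sides, from -1.25 for SEC61G to 2.74 for ERN1.

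In the last group, CRELD2, UFM1 and SEC24D rose in glutamine-only medium, and these 3 and SEC23B rose in deficient medium. With equal totals, 2 rose in glutamine-only medium, and 2 rose and 1 fell in deficient medium. CRELD2, a protein of the ER that can be secreted (ENSG00000184164, chromosome 22, 49918634 to 49927537), stood at 6.0, 0.9 and 4.6 in full, 3.6, 2.1 and 7.1 in glucose-only, 19.8, 29.9 and 34.5 in glutamine-only and 5.2, 20.5 and 11.6 in deficient medium. The glutamine-only libraries were above all full and glucose-only libraries and overlapped with deficient replicate B. It rose by 2.75 ± 0.48 in glutamine-only (adjusted p = 7.07e-05) and 1.496 ± 0.48 in deficient medium (0.00991). It was under 10 in every full and glucose-only library. Without deficient replicate B or full replicate B the deficient change did not pass (1.07 and 0.93, adjusted p = 0.0875 and 0.106).

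UFM1, the ubiquitin-like tag, stood at 35.7, 34.8 and 40.4 in full, 60.2, 50.3 and 48.2 in glucose-only, 48.7, 59.7 and 54.1 in glutamine-only and 66.4, 54.3 and 87.0 in deficient medium. All starved libraries lay above the full ones. UFM1 rose by 0.86 ± 0.17 in deficient (adjusted p = 7.83e-05), 0.54 ± 0.17 in glutamine-only (0.0184) and 0.50 ± 0.17 in glucose-only medium (0.0274). With equal totals the last 2 did not pass. The glutamine-only change also did not pass without glutamine-only replicate B or full replicate A or B (0.47 to 0.52, adjusted p 0.0587 to 0.0896). Nor did the glucose-only change without glucose-only replicate A or full replicate A or B (0.41 to 0.48, adjusted p 0.0768 to 0.126). UFL1, the ligase that attaches UFM1, was at 0.15 ± 0.26 and -0.28 ± 0.26 in glutamine-only and deficient medium.

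SEC24D, a cargo adaptor of the COPII coat that carries proteins out of the ER, stood at 44.3, 31.0 and 49.5 in full, 24.1, 24.1 and 28.2 in glucose-only, 62.2, 74.2 and 70.8 in glutamine-only and 79.4, 60.4 and 65.2 in deficient medium. Libraries without glucose lay above and glucose-only libraries below the full ones. SEC24D fell by 0.66 in glucose-only medium (adjusted p = 0.00573), and rose by 0.74 ± 0.17 in glutamine-only (0.0021) and 0.72 ± 0.17 in deficient medium (0.00101). The fall did not pass without full replicate C (-0.53, 0.0514) or with DESeq2, and the deficient rise did not with equal totals. SEC23B, a coat subunit, stood at 53.6, 54.5 and 61.5 in full, 39.7, 50.3 and 41.2 in glucose-only, 46.0, 61.6 and 51.3 in glutamine-only and 92.4, 88.1 and 87.7 in deficient medium. The deficient libraries were above all others. It rose by 0.66 ± 0.15 in deficient medium (adjusted p = 0.000483), not past the threshold with equal totals, and did not pass in the other starved media.

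Setting the media with 1 nutrient against each other, 27 members were higher in glutamine-only than in glucose-only medium, 1 was lower and 18 did not pass (all genes: 8.26% higher, 5.05% lower), with a median of 0.56 against 0.00 for all genes. With equal totals 27 were higher and none lower, where 12.4% of all genes were called, higher and lower together. Of the 27, 14 exceeded 2-fold. By role, 11 of 15 translocon and signal peptidase members, 6 of 7 in N-glycosylation, 7 of 10 in ERAD and none of 5 in the signal recognition particle group were higher. HERPUD1 differed by 1.58 ± 0.13, SEC11C by 1.57 ± 0.24 and SEC24D by 1.40 ± 0.17. ERN1 was the member that was lower, at -0.60 ± 0.16. It did not pass without glucose-only replicate B (-0.48, adjusted p = 0.0836) or with equal totals. Calls of EIF2AK3, OST4, SEC61B, SSR3 and VCP here were also lost when 1 library was left out (glutamine-only or glucose-only A, B or C, or full B or C; adjusted p 0.0503 to 0.159).

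Withdrawing glucose from cells that already lacked glutamine, deficient against glucose-only medium, gave 26 higher, 0 lower and 20 not passing (all genes: 23.2% higher, 20.1% lower). With equal totals 17 were higher and none lower. Of all genes 41.4% were then called, higher and lower together. The median of the members was 0.26 by that scaling, against -0.17 for all genes. HERPUD1 was higher by 1.57 ± 0.13, EIF2AK3 by 1.45 ± 0.27, XBP1 by 1.43 ± 0.12, SEC24D by 1.38 ± 0.17 and SEC23B by 1.02 ± 0.15. Of the 26, 7 did not pass when 1 library was left out, namely CRELD2, DERL2, EDEM1, SEC61A1, SEC61G, SRP68 and SRPRB (deficient A, B or C, or glucose-only A or B; adjusted p 0.06 to 0.186).

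Withdrawing glutamine from cells that already lacked glucose, deficient against glutamine-only medium, gave 8 higher and 13 lower, with 25 not passing (all genes: 21.6% higher, 19.9% lower). The 8 and 13 are 17.4% and 28.3% of the members, not far from the shares of all genes. With equal totals the split was 3 higher and 22 lower, and with quantile normalization 5 and 19. Of all genes 40.6% and 37.5% were called with these 2 scalings, higher and lower together. The median of the members was -0.20 against 0.01 for all genes, and with equal totals -0.48 against -0.26. The lower members were in ERAD (4), the translocon and signal peptidase (4), N-glycosylation (4) and the last group (1, CRELD2). SYVN1 was at -1.07 ± 0.21, EDEM1 at -0.97 ± 0.11, SPCS3 at -0.94 ± 0.11, OS9 at -0.91 ± 0.17, UGGT1 at -0.76 ± 0.11 and SEL1L at -0.72 ± 0.11. The higher members included XBP1 at 1.19 ± 0.12, ERN1 at 0.86 ± 0.16, SEC23B at 0.75 ± 0.15, SRP54 at 0.74 ± 0.17 and SRP72 at 0.63 ± 0.12. XBP1 and these 4 ERAD genes lay on opposite sides. With equal totals SRP54 and SRP72 did not pass, and calls of CRELD2, DAD1, DDOST, SEC61A1, SRP68 and STT3A were lost when 1 deficient or glutamine-only library was left out (adjusted p 0.0619 to 0.228).

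The interaction tested whether glucose loss changed a member differently with and without glutamine, as the deficient minus glucose-only change less the glutamine-only minus full change. It passed for 16 members, 6 above 0 and 10 below, with 30 not passing (all genes: 15.5% above, 11% below). With quantile normalization the split was 3 above and 15 below, and DESeq2 on recovered reads called 8, 3 above and 5 below. Of all genes 24.9% were called with the first and 16% with the second, above and below together. The 8 of 46 members are close to that share of 16%. DESeq2 did not keep XBP1, SEC61A1, SSR1, SRP54, DAD1, UGGT1, HERPUD1 and OS9. In ERAD 5 of 10 members were below 0 and none above, and the same counts were found with equal totals and quantile normalization. SYVN1 rose by 1.62 on glucose loss with glutamine present and was at 0.29 ± 0.21 without it, an interaction of -1.33 ± 0.29 (adjusted p = 0.000971). For SEL1L the changes were 1.71 and 0.54 (interaction -1.17 ± 0.16, 1.86e-06), and for EDEM1 1.41 and 0.34 (-1.07 ± 0.16, 1.15e-05). ERN1 had the most negative value, -1.88 ± 0.23 (2.85e-07): it rose by 2.14 with glutamine and was at 0.26 ± 0.16 without it, from a glucose-only level that was already high.

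On the other side, SEC23B was at -0.10 ± 0.15 on glucose loss with glutamine and rose by 1.02 ± 0.15 without it, an interaction of 1.12 ± 0.21 (adjusted p = 0.000169). SRP72 was at -0.25 ± 0.12 and 0.65 ± 0.12 (interaction 0.90 ± 0.17, 0.000208), and SEC61G at -0.34 ± 0.12 and 0.39 ± 0.12 (0.73 ± 0.18, 0.00262). SEC23B and SRP72 passed on glucose loss without glutamine and not with it, while the values of SEC61G had opposite signs. The rise of SEC61G without glutamine did not pass without deficient replicate C (0.27, adjusted p = 0.111), nor with equal totals, quantile normalization or DESeq2. XBP1 passed at 0.53 ± 0.17 (0.023), but not without deficient replicate C, glucose-only replicate C or full replicate B or C (0.39 to 0.50, adjusted p 0.0543 to 0.09), nor with equal totals, quantile normalization or DESeq2.

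**Figure D4:**
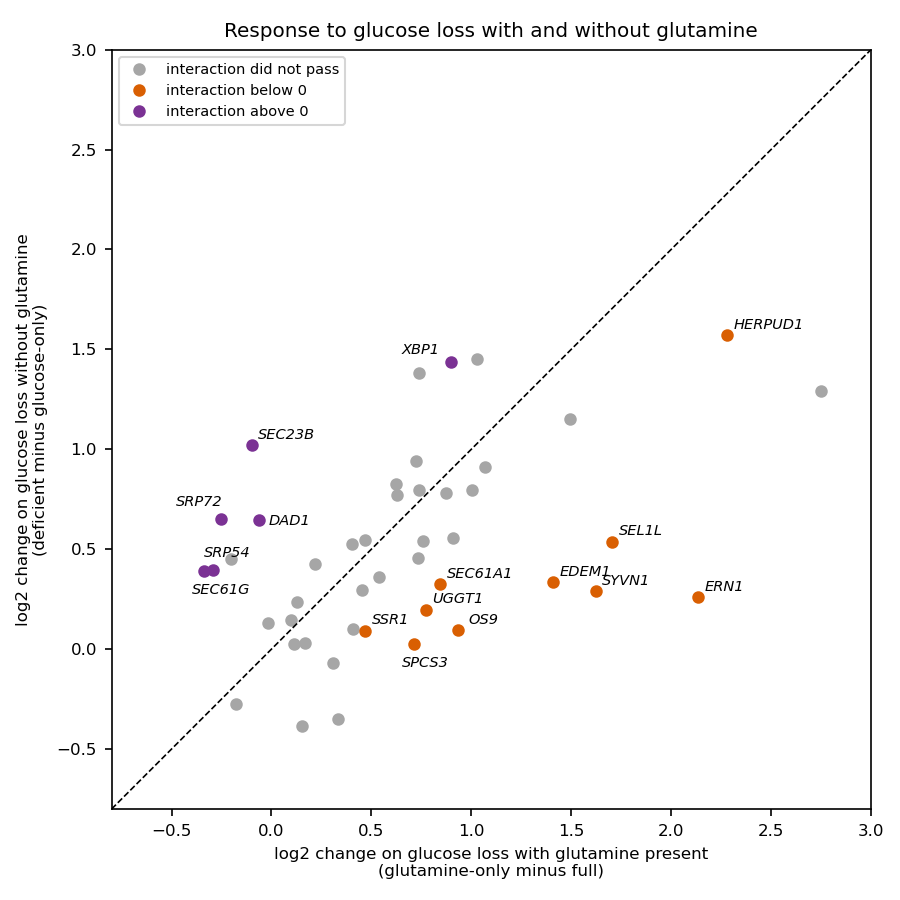
Each point is 1 of 46 tested members: log2 change on glucose loss with glutamine present (horizontal) against that without glutamine (vertical), with the dashed line where both are equal. Members with an interaction below 0 (orange, 10) lie under the line, such as SYVN1 at 1.62 and 0.29, and those above 0 (purple, 6) lie over it, such as SEC23B at -0.10 and 1.02.

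Genes of the same pathways that are not members gave a reference. HSPA5, the chaperone BiP that holds the sensors inactive, went from 256 ± 15.3 in full to 309 ± 21.1 in glucose-only, 1274 ± 31.6 in glutamine-only and 1599 ± 60.4 in deficient medium. Its interaction was 0.06 ± 0.13 (adjusted p = 0.785). DNAJB9, a BiP co-chaperone and XBP1 target, went from 25.2 ± 4.93 to 58.4 ± 7.36, 112 ± 3.66 and 250 ± 46.1. DDIT3, the factor CHOP on the PERK branch, went from 4.92 ± 3.198 to 25.7 ± 3.05, 30.1 ± 7.34 and 87.0 ± 3.40. ATF4, also on that branch, went from 83.9 ± 5.22 to 133 ± 10.8, 147 ± 11.2 and 142 ± 4.73. All 4 genes rose in all 3 starved media, whereas the ERAD members other than HERPUD1 and SEL1L did not pass or fell in glucose-only medium. These 4 do not stand for their pathways in glucose-only medium. Of 14 core ER chaperones, HSPA5 and DNAJB9 among them, 2 rose and 6 fell there, with a median of -0.23. Of 13 sensor partners and outputs, ATF4 and DDIT3 among them, 4 rose and 0 fell. Among all tested genes 9.44% rose and 13.5% fell.

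The rest of each pathway was counted in glutamine-only against full medium, where 10.8% of all tested genes rose and 11.6% fell. The other translocation and insertion genes, with 15.8% higher, 5.26% lower and a median of 0.07, were close to that background. Among other translocation and insertion genes 3 of 19 rose and 1 fell (SEC61A2 1.16, HSPA13 0.70, CAMLG 0.63), among other N-glycosylation genes 7 of 24 rose and none fell (ALG5 1.10, OSTC 0.95, MAGT1 0.94), and among other ERAD genes 4 of 17 rose and 1 fell (SELENOS 1.27, AUP1 0.87, UBE2G2 0.86). Of other UFMylation genes 2 of 6 rose (CDK5RAP3 0.97, ODR4 0.79), and of other ER-to-Golgi genes 7 of 18 rose and 3 fell (TMED9 0.66, TMED10 0.64, SEC24C 0.62). Of the sensor partners and outputs 5 of 13 rose and 1 fell (DDIT3 2.52, PPP1R15A 1.58, ATF3 1.43). ATF3 had means of 2.66 in full, 5.12 in glucose-only and 8.63 in glutamine-only medium, and passed the filter through deficient medium (69.0). DDIT3 had a mean of 4.92 in full medium, and SEC61A2 went from 4.37 in full to 10.2 in glutamine-only medium. These 3 changes start from few reads. SEC61A2, with means under 10 in the other media, passed the filter only with the help of glutamine-only libraries, where it is high. Its place among the rises of its list is no support for them. In the core ER chaperones 13 of 14 rose, with a median of 1.82 (SDF2L1 2.86, HYOU1 2.86, HSPA5 2.31). SDF2L1 and HYOU1, with means under 10 in full and glucose-only medium, passed the filter only through the media without glucose. They are high there, so their place among the 13 is no support for the rise of the list. These lists and the members were chosen with earlier results known, and the difference between their counts was not tested.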

How the data were processed

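RNA-seq of 12 MDA-MB-231 libraries, 3 for each of 4 media, was used. The authors deposited 1 table of gene-level signal, that is read counts divided by a size factor per library; the submitters' processing notes name FastQC, HISAT2, Subread and DESeq2 with build GRCh38.p14, and versions, annotation and strand setting are not given in the sources used here. In every library 100% of values were whole reads within 0.01, so reads were recovered for the tests on counts.

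The test was made in R 4.3.3 with limma-trend (version 3.58.1), 1 mean per medium over all 12 libraries, after a log2 transform with a pseudocount of 1. It covered the 9270 genes that reached 10 in 3 or more libraries, with adjusted p under 0.05 as threshold. edgeR 4.0.16 (TMM) and DESeq2 1.42.0 on recovered reads were alternatives. The others were quantile normalization, equal totals, a replicate block, adjusted p under 0.01, each library left out, only the media compared, pseudocounts 0.5 and 8, a filter at a mean of 100, and none.

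Values in each library are given for 18 members: the 4 sensors, up to 6 highest and 3 lowest called in each comparison with full medium, and up to 3 in each direction of the interaction. The other genes named are fixed anchors and up to 3 of each pathway list with the largest changes called in glutamine-only medium. Members and lists were chosen with earlier results of these data known. Gene positions and promoters are from RefSeq (GRCh38.p14), exon sharing from GENCODE release 29. The pairing of equal replicate letters was checked, and the libraries were not treated as paired.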

Additional observations from a re-analysis of the deposited data

Results flagged for a closer look

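For 16 of 46 members the change on glucose loss differed between cells with and without glutamine, by the interaction in the limma fit. Of the members 13% were above 0 and 21.7% below, against 15.5% and 11% of all tested genes. The share above 0 was thus under that of all genes. The interaction (log2) was above 0 for XBP1 (0.53, adjusted p = 0.023), SEC61G (0.73, 0.00262), SRP54 (0.69, 0.031), SRP72 (0.90, 0.000208), DAD1 (0.71, 0.0094) and SEC23B (1.12, 0.000169). It was below 0 for ERN1 (-1.88, adjusted p = 2.85e-07), SEC61A1 (-0.52, 0.0207), SSR1 (-0.38, 0.0477), SPCS3 (-0.69, 0.00118), UGGT1 (-0.57, 0.00851) and the ERAD genes EDEM1 (-1.07, 1.15e-05), SEL1L (-1.17, 1.86e-06), SYVN1 (-1.33, 0.000971), HERPUD1 (-0.71, 0.0047) and OS9 (-0.84, 0.0119). The calls of SEC61A1, SRP54, SSR1 and XBP1 were lost when 1 library was left out (adjusted p 0.0508 to 0.124), for SSR1 with 8 of the 12 libraries and for the others with 4 or 5. Groups of 3 libraries are too small for a search for single outlying libraries.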

How the results depend on the processing

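Of 161 calls of members over 7 comparisons, 96 kept their direction and their side of the threshold in every alternative. Equal totals turned 3 small changes in deficient against full medium to below 0, none of them past the threshold: SRP72 (-0.020), STT3A (-0.00056) and DAD1 (-0.036); the median of all genes moved to -0.37 there. The number of members called in glucose-only against full medium, 11, became 17 with equal totals and 6 with DESeq2, and 7 to 11 when 1 library was left out, with 7 without full replicate B. Of all genes 27.5% were called there with equal totals and 13.5% with DESeq2. Deficient against glucose-only medium gave 17 with equal totals in place of 26, and the interaction 8 with DESeq2 in place of 16. Of all genes 41.4% and 16% were called in these 2. In glutamine-only against full medium, where none fell in the main fit, 1 member fell with equal totals, pseudocount 8, edgeR or only the media compared. The same count of 1 was found with a mean of at least 100 and without deficient replicate B or C or full replicate A. A mean of at least 100 left 17 members to test, of which 14 were called in deficient, 7 in glucose-only and 14 in glutamine-only against full medium. It called 13 in glutamine-only against glucose-only, 12 in deficient against glucose-only, 12 in deficient against glutamine-only medium and 9 in the interaction. Fewer genes were tested there. Of all genes tested with that filter, 74.4%, 50.7% and 51.4% were called in deficient, glucose-only and glutamine-only against full medium. The shares were 40.1%, 64%, 64.1% and 52.1% in the other comparisons, in the order given. Deviations of libraries of equal letter had r from -0.03 to 0.07 (median 0.010, 18 pairs), too low to be taken as pairs, against -0.07 to 0.04 (median -0.0055) for other letters. The highest r was with the same letter for 9 of 12 libraries, and in every other medium for 1. With the replicate block the counts were 29, 11, 29, 28, 26, 21 and 17, for deficient, glucose-only and glutamine-only against full, glutamine-only and deficient against glucose-only, deficient against glutamine-only and the interaction. The cause of these shifts was not tested. Low counts limit OST4, CRELD2, EDEM2 and RPN2 and, of the genes that are not members, SDF2L1, HYOU1, ATF3, DDIT3 and SEC61A2.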
